A study of Salmo salar with 30 samples.

Results

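The contractile-protein probes described here are 33 of the 21117 microarray probes that the authors retained for juvenile Atlantic salmon heads. They were taken from the study's lists of probes that differed between rearing environments over all families or within family X11, where the annotated name held myosin, troponin, tropomyosin, actinin, titin, nebulin, parvalbumin, creatine kinase or sarcoplasmic. Names with cardiac or atrial, probe C086R103 and probes that the study listed under heart development or cell cycle were left out, so that 11 of the 44 matching probes were dropped. Of the 33 probes, 25 were listed for X11 alone, 7 for X11 and over all families, and 1 over all families alone. The probes were thus chosen by their measured difference between environments, by the study's own test in X11 or over all families. The environment difference in X11 is given below as a description with no test, and tests are confined to families X22 and X35, to the 25 probes listed for X11 alone, and to differences between families. Listing for X11 but not over all families also leaves out probes that differed alike in every family, which limits what X22 and X35 can show.

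Full sibs of 3 families were incubated from embryo to emergence in a hatchery container with gravel (enriched) or without it (unenriched), and 5 juveniles were taken from each of the 6 family and environment groups. X11 had a wild dam and a wild sire from the Little River in Newfoundland, whereas X22 and X35 each had a wild Little River dam and a farmed sire of the Saint John River strain. RNA came from whole heads cut behind the operculum, which held brain, eyes, heart and cranial muscle, and each juvenile (Cy5) was hybridized against 1 reference pooled from all juveniles (Cy3) on its own array, with no dye swap. Because each family was reared in its own container in each environment, container and family-by-environment group cannot be told apart, and p-values measure the spread between juveniles of a container.

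Striated muscle shortens when myosin heads of the thick filament pull on actin of the thin filament. Troponin and tropomyosin open the thin filament when calcium is released from the sarcoplasmic reticulum, and the SERCA pumps return the calcium afterwards. Titin, nebulin and the actinins of the Z-disc hold the filaments in register, creatine kinase buffers ATP, and parvalbumin buffers calcium in fast fibres and in some neurons. Smooth muscle and non-muscle cells build similar machines from other myosins and tropomyosins, used for cell shape and transport.

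By their names, 24 probes were placed in striated muscle classes and 9 with smooth muscle, non-muscle or broadly used proteins. The striated classes held 6 thick filament, 3 thin filament, 9 Z-disc, titin or nebulin scaffold, and 6 calcium handling and energy probes. The set is therefore wider than skeletal muscle. The name creatine kinase gives no isoform, and parvalbumin is also used in some neurons, so the striated label is not certain for every probe. The 9 are called smooth or non-muscle below, although they include broadly used proteins. The tropomyosin names (alpha-1, alpha-3, alpha-4 and 4) give no muscle type, so striated muscle is not excluded for those among the 9, and tropomyosin alpha-1 is not certain to be striated. Several names of the striated classes, such as titin, actinin-2 and SERCA2, are of proteins that heart muscle also uses, and in mammals myosin light chain kinase 3 and myosin light chain 4 are known from the heart, so the names do not separate cranial from heart muscle. In RNA of a whole head, fewer muscle cells and less of a transcript per cell cannot be told apart. With length taken into account, the paper found enriched juveniles heavier than their unenriched sibs. It names size or developmental stage as a possible contributor to differences in muscle transcripts of heads, which was not tested here.

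Signal strength differed between the classes. Cy5 signal was above the detection limit (the array's mean background plus 2 SD) on all 30 arrays for 20 of the 24 striated probes but for only 3 of the 9 smooth or non-muscle probes. Myosin light chain 3 (C221R081), by its name an essential light chain, was saturated in Cy5 on 29 of 30 arrays and the sarcoplasmic reticulum calcium pump C228R110 on 27, so no fold is given for either. The lowest correlation between any 2 arrays over all probes was -0.39, and the direction of every ratio (juvenile over reference) follows the dyes stated in the methods.

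In X11, on which 32 of the probes were chosen, transcript abundance of the striated classes was lower in the enriched juveniles for 23 of 24 probes, with a median difference of -0.87 (log2, enriched minus unenriched). Over all 21117 probes 51.4% were lower and the median was -0.01. The remaining probe, SERCA2 (C175R096), was under the detection limit on all 10 X11 arrays. Of the 9 smooth or non-muscle probes, 6 were higher in the enriched juveniles, with a median of 0.84, where 48.6% of all probes were higher. Leaving out any 1 X11 juvenile left these counts at 23 and 6. The probes were chosen for differing between these same juveniles, so nothing is read from that stability.

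**Figure D1:**
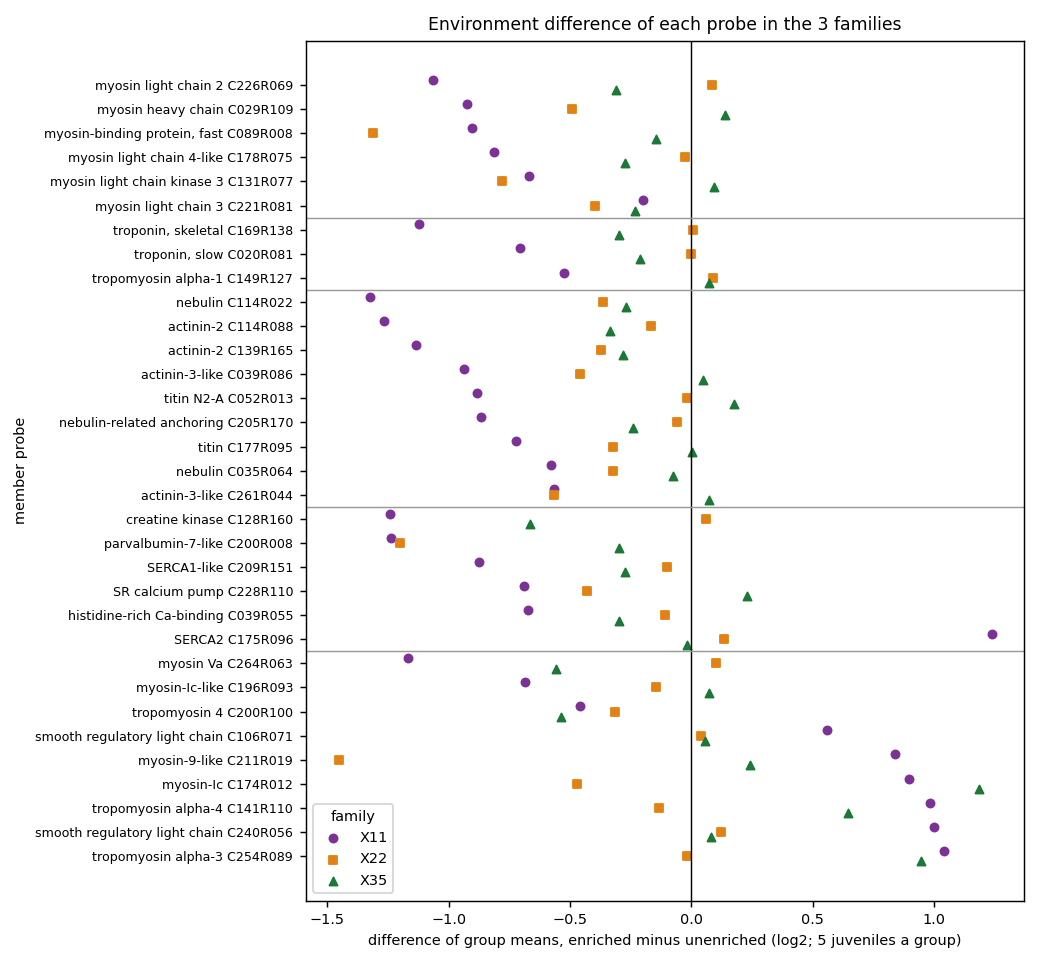
Difference of group means (log2, enriched minus unenriched, 5 juveniles a group) for each of the 33 probes in X11 (circles), X22 (squares) and X35 (triangles). In X11, 23 of the 24 striated probes lie left of 0, and the striated probes of X22 and X35 mostly lie closer to 0.

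Among thick filament probes, myosin-binding protein fast-type-like (C089R008), which ties myosin to the filament backbone in fast fibres, had log2 ratios of -0.57, -0.69, -0.77, -0.98 and -0.41 in the enriched X11 juveniles and of 0.49, 0.29, 0.32, 0.24 and -0.24 in the unenriched ones. No enriched juvenile reached the lowest unenriched one, and the means differed by -0.90 (1.87-fold lower). Every enriched juvenile was below every unenriched one for 7 of the 33 probes, against 6.14% of all probes, and above for 1, against 5.09%, shares from which nothing is read because this contrast chose the probes.

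Myosin light chain 2 (C226R069), by its name a regulatory light chain, was 2.09-fold lower on average in enriched X11 juveniles, although juvenile 3 of the enriched group (1.04) lay above juvenile 4 of the unenriched group (0.39). Myosin heavy chain (C029R109), the motor itself, ranged only from -1.11 to -0.90 in the enriched juveniles. The unenriched values were 0.52, 0.48, -0.71, 0.52 and -1.12, so that juvenile 3 sat nearest above the enriched range and juvenile 5 just below it.

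On the thin filament, troponin skeletal muscle (C169R138), a subunit of the calcium switch, had ratios of -1.16, -0.40, -0.58, 0.12 and -0.44 in enriched and of 0.35, 0.41, 1.39, 0.78 and 0.23 in unenriched X11 juveniles. The groups did not overlap, and the mean was 2.18-fold lower. The slow skeletal troponin (C020R081) and tropomyosin alpha-1 (C149R127), which covers the myosin sites on actin, had smaller X11 differences of -0.70 and -0.52, each with overlapping groups.

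The Z-disc and scaffold class held the largest X11 differences of the striated probes. Nebulin (C114R022), the ruler of the thin filament, had ratios of 0.19, -0.75, -0.32, -0.72 and -0.62 in enriched and of 0.95, 0.97, 1.01, 1.03 and 0.43 in unenriched X11 juveniles, which is 2.50-fold lower with no overlap. Alpha-actinin-2 (C114R088), which crosslinks actin at the Z-disc, was 2.40-fold lower, also with no overlap. The second alpha-actinin-2 probe (C139R165) was 2.19-fold lower, but its unenriched juvenile 5 (-0.62) lay below 4 of the 5 enriched ones. The 2 titin probes, for the elastic protein that spans from Z-disc to mid-sarcomere, differed by -0.72 (C177R095) and -0.88 (C052R013).

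In the calcium and energy class, parvalbumin-7-like (C200R008) was 2.36-fold lower in enriched X11 juveniles and creatine kinase (C128R160) 2.37-fold lower, both with overlapping groups. Unenriched juvenile 5 set the extremes of both, at -0.70 for parvalbumin and at 2.62 for creatine kinase. The SERCA1-like pump of fast fibres (C209R151) was 1.83-fold lower, and the histidine-rich calcium-binding protein of the reticulum lumen (C039R055) 1.60-fold lower with no overlap.

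The smooth and non-muscle probes ran the other way in X11 for myosin-Ic C174R012 (a membrane-bound motor), myosin-9-like C211R019 (a non-muscle filament myosin), tropomyosin alpha-3 C254R089, tropomyosin alpha-4 C141R110 and both smooth muscle regulatory light chains, C240R056 and C106R071. For myosin-Ic C174R012, the enriched juveniles gave 0.62, 1.18, 0.83, 0.74 and 1.07 and the unenriched ones -0.37, 0.16, -0.07, 0.29 and -0.06. The groups did not overlap, but all 5 unenriched juveniles were under the detection limit, so that the difference is at least 1.73-fold higher. A bound sets the brighter group's mean against the detection floor of the arrays in the dimmer group. Myosin-9-like differed by 0.84 with overlapping groups, and all 5 unenriched juveniles were again under the limit. Its bound came to 1.90-fold, above the 1.79-fold of the measured means, so it is not used as a lower limit.

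The second myosin-Ic probe, C196R093, differed by -0.68 in X11, opposite in sign to the first. All 5 enriched and 4 of the 5 unenriched juveniles were under the limit, so no fold is given for it. Tropomyosin 4 (C200R100), known in mammals as a cytoskeletal tropomyosin, differed by -0.46 in X11. Myosin Va (C264R063), a cargo motor, differed by -1.17 in X11, although it was under the limit on all 30 arrays and has no fold.

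Tropomyosin 4 (-0.46), tropomyosin alpha-1 (-0.52) and the smooth regulatory light chain C106R071 (0.56) had the smallest X11 differences among the probes listed for X11, and myosin light chain 3, whose saturation limits its ratios, was not listed for X11. Over all families, the smallest difference of a listed probe other than myosin light chain 3 was -0.36, for the histidine-rich calcium-binding protein, whereas tropomyosin alpha-3 (0.66) and creatine kinase (-0.61) were not listed over all families.

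**Figure D2:**
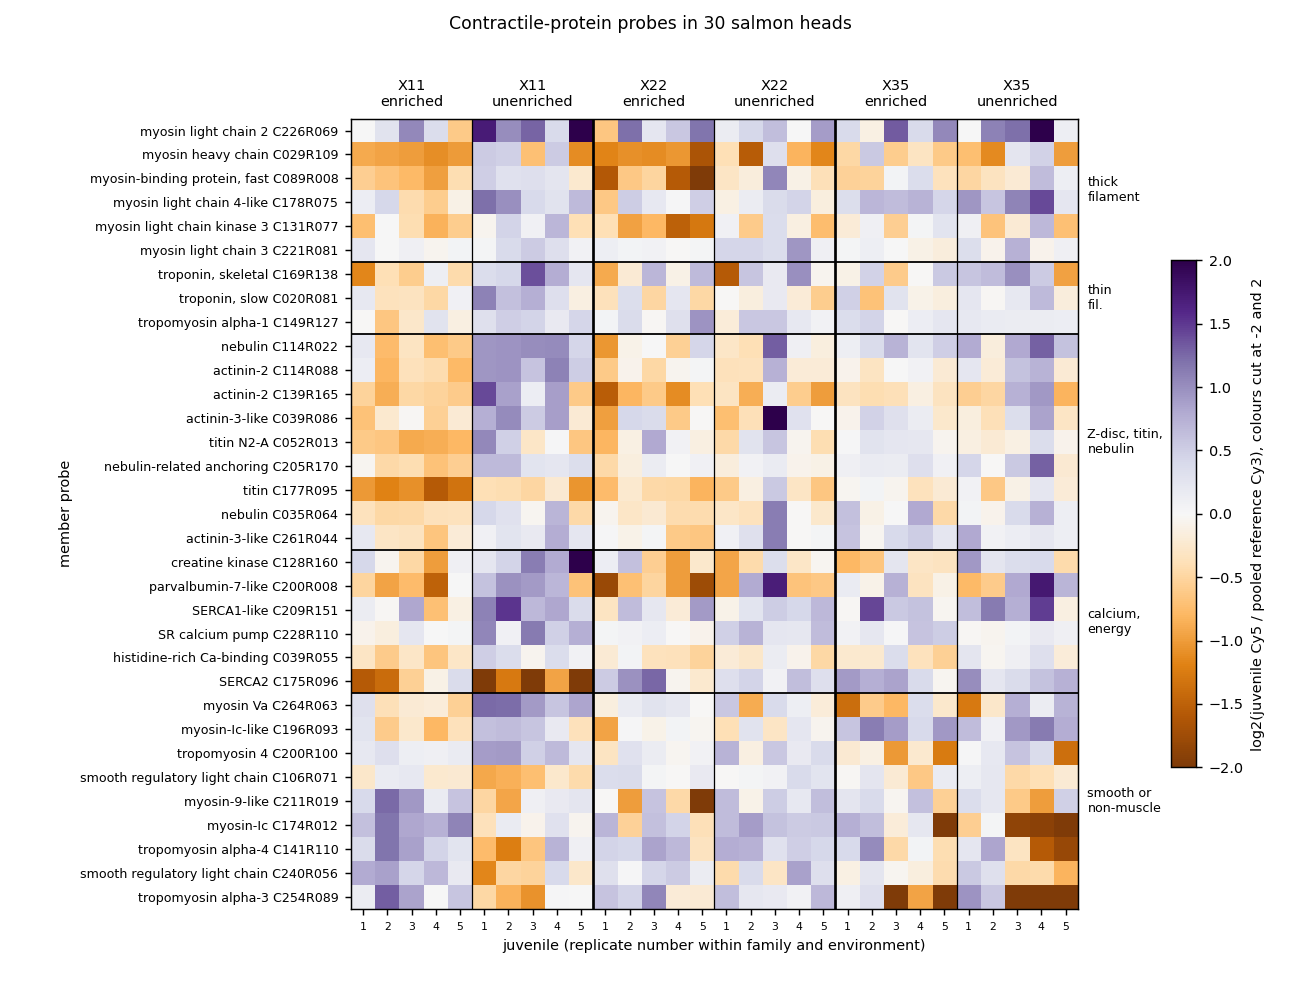
Log2 ratio of each juvenile to the pooled reference (colour, cut at -2 and 2) for the 33 probes (rows, by class) in the 30 juveniles (columns, by family, environment and replicate number). The change of colour between environments is clearest in X11, and replicate 3 of the unenriched X22 group stands out over several Z-disc rows.

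The same contrast in X22 and X35 was smaller for most striated probes. Of the 16 striated probes listed for X11 alone, 10 were lower in the enriched juveniles of X22 and 5 higher, with 1 at 0, and the median was -0.06 (of all probes, 50% were lower and 49.9% higher). In X35, 8 of the 16 were lower and 8 higher, with a median of -0.01 (of all probes, 49.3% and 50.6%). The other 8 striated probes were listed over all families, so X22 and X35 helped to choose them, and all 8 were lower in both, which brought the counts over the 24 to 18 in X22 and 16 in X35. The absolute difference was below that of X11 for 15 of the 16 in X22 and for all 16 in X35, which follows in part from the choice of probes on X11. Of the 16, 3 were lower in all 3 families.

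These counts rested on single juveniles. Without replicate 3 of the unenriched X22 group, 7 of the 16 were lower in X22, with a median of 0.04, and without replicate 1 of that group 13 were, with a median of -0.30. Without replicate 5 of the enriched X35 group, 6 of the 16 were lower in X35, with a median of 0.05, and without replicate 2 of the unenriched X35 group 12 were, with a median of -0.12.

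Fitted over both families together (limma, family as a term), 4 of the 21117 probes differed between environments at an adjusted p under 0.05 (0.0189%), and none of the 25 probes listed for X11 alone was among them. Before adjustment, 0 of the 25 had a p under 0.05, against 9.61% of all probes. Of all 33 probes 3 did, each among the 8 listed over all families. The X22 and X35 juveniles helped to choose those 8, so leaving them out lowers the count of the 25, and nothing is read from it. Their median difference was -0.15 with 17 lower and 8 higher, against 50.1% lower and 49.9% higher over all probes. In X22 alone 1 probe passed (0.00474%) and in X35 alone none did (0%), again with 0 of the 25. At the unadjusted threshold the counts were 3 of 25 in X22 (10.4% of all probes) and 1 of 25 in X35 (4.95%).

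The 3 probes at the unadjusted threshold in X22 were myosin light chain kinase 3, the calcium pump C228R110 and alpha-actinin-3-like C261R044, and that in X35 was creatine kinase. Myosin light chain kinase 3 (C131R077), known in mammals to phosphorylate the cardiac regulatory light chain, had ratios of -0.40, -0.96, -0.78, -1.51 and -1.29 in enriched X22 juveniles, all under the detection limit, and of 0.09, -0.61, 0.35, -0.14 and -0.75 in unenriched ones. The groups overlapped, and the difference of -0.78 (SE 0.26) had an adjusted p of 0.418 in limma. As a bound it was at least 1.58-fold lower. In X35 the same probe differed by 0.09 with overlapping groups.

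Creatine kinase was measured in enriched X35 juveniles at -0.79, -0.67, 0.25, -0.30 and -0.33 and in unenriched ones at 0.93, 0.24, 0.35, 0.39 and -0.44. Only enriched juvenile 3 and unenriched juvenile 5 broke the separation. The difference of -0.66 (SE 0.26) had an adjusted p of 0.959 in limma. In X22 creatine kinase differed by 0.06.

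For the calcium pump C228R110, the enriched X22 juveniles lay between -0.07 and 0.13 and the unenriched ones between 0.20 and 0.72. It and myosin-binding protein fast-type-like were the 2 probes for which every enriched X22 juvenile was below every unenriched one, against 1.33% of all probes. None was wholly above (0.89% of all probes), and in X35 none was wholly below (0.706%) or above (0.398%). The saturation of C228R110 compresses its ratios by an amount that was not measured.

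Alpha-actinin-3-like (C261R044), the fast-fibre actinin, differed by -0.56 in X22 (SE 0.24), close to its -0.57 in X11. The groups overlapped, and the adjusted p was 0.451 in limma. In X22 its unenriched juvenile 3 reached 1.11, and the next highest unenriched value was 0.30, so the X22 difference rested in part on that juvenile. Its second probe, C039R086, differed by -0.46 in X22, where unenriched juvenile 3 reached 2.29 and the other 4 lay between -0.72 and 0.29. In X35 the 2 probes differed by 0.07 and 0.05.

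The 8 probes that were also listed over all families are described without a test in X22 and X35, since those juveniles helped to choose them. Myosin-binding protein fast-type-like had ratios of -1.59, -0.63, -0.51, -1.57 and -2.16 in enriched X22 juveniles and of -0.30, -0.17, 1.06, -0.11 and -0.38 in unenriched ones. The groups did not overlap, and the mean was 2.48-fold lower. In X35 its difference was -0.15.

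Parvalbumin-7-like was 2.30-fold lower in enriched X22 juveniles, where all 5 (-1.79, -0.71, -0.51, -0.99 and -1.76) lay below the 2 highest unenriched juveniles (0.78 and 1.70) and overlapped the other 3 (-0.94, -0.68 and -0.63). In X35 it differed by -0.30. Nebulin C114R022 differed by -0.36 in X22 and -0.27 in X35, and alpha-actinin-2 C139R165 by -0.37 and -0.28, all with overlapping groups.

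Among the smooth and non-muscle probes, 3 of 9 were higher in the enriched juveniles of X22 and 7 of 9 in those of X35, and none passed the test. Myosin-9-like (C211R019) differed by -0.61 over both families (SE 0.47, adjusted p = 0.691 in limma). Its X22 value rested on enriched juvenile 5 at -4.50, while the other 4 lay between -0.99 and 0.58, and 4 of these 5 arrays were under the detection limit. Without that juvenile the difference over both families was -0.15. Tropomyosin alpha-3 (C254R089) differed by 0.46 (SE 0.61, adjusted p = 0.828 in limma). On the thin filament, skeletal troponin differed by -0.15 (SE 0.30, adjusted p = 0.890) and slow troponin by -0.11 (SE 0.16, adjusted p = 0.849) in the same fit.

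The environment difference was not shown to differ between X22 and X35. No probe passed the test of the interaction (0%), and at an unadjusted p under 0.05 there were 3 of 25, against 5.87% of all probes. These were the calcium pump C228R110 (-0.66, X22 minus X35, SE 0.19), myosin-Ic C174R012 (-1.66, SE 0.68) and myosin light chain kinase 3 (-0.87, SE 0.39), each with an adjusted p of 0.841 in limma. Myosin-Ic was under the limit in 4 or all 5 juveniles of both X35 groups, and in 4 of 5 enriched and 3 of 5 unenriched X22 juveniles. Of its enriched X22 values 2 were imputed.

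Within X22 and X35, more probes passed between families than between environments. Between X22 and X35, with environment as a term, 2489 probes (11.8%) passed an adjusted p of 0.05 and 3 of the 33 contractile probes were among them. At the unadjusted threshold the counts were 13 of 33 against 28.7% of all probes. Almost all arrays of these families lay on different slides, so family and slide can hardly be told apart. With slide as a fixed block, 63 probes and 0 contractile probes passed. Between X11 and the mean of the other families, 2773 probes (13.1%) passed, with 4 of 33, and at the unadjusted threshold 8 of 33 against 28.6%. No contractile probe separated 2 families without overlap, against 0.355% of all probes for X22 and X35, 0.256% for X11 and X22, and 0.483% for X11 and X35.

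SERCA2 (C175R096), named as a calcium pump of the sarcoplasmic or endoplasmic reticulum, was lower in X11. The name gives no isoform and does not tie the probe to muscle alone. The X11 juveniles had ratios of -1.56, -1.40, -0.56, -0.10 and 0.37 when enriched and of -2.04, -1.27, -2.55, -0.95 and -2.62 when unenriched. The 10 X22 juveniles lay between -0.24 and 1.26 and the 10 X35 juveniles between -0.04 and 1.01. All but 2 enriched X11 juveniles (4 and 5) lay below every juvenile of the other families. The family difference was -1.77 (SE 0.23, adjusted p = 1.55e-05 in limma), and since all X11 arrays and 9 of the other 20 were under the detection limit, it is given as at least 2.03-fold.

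Titin C177R095 was also lower in X11, with a difference of -0.62 (SE 0.13, adjusted p = 0.00231 in limma). Its mean over 10 juveniles was -0.88 for X11 but -0.39 for X22 and -0.12 for X35. The second titin probe, C052R013, had family means of -0.32, -0.03 and 0.05 and did not pass. The smooth regulatory light chain C106R071 was lower in X11 (-0.38, SE 0.11, adjusted p = 0.0233), and tropomyosin 4 was higher (0.47, SE 0.16, adjusted p = 0.0468). Without unenriched X11 replicate 1 the light chain did not pass (adjusted p = 0.0535), and tropomyosin 4 did not pass in 17 of the 30 fits without 1 juvenile (adjusted p up to 0.0824). With slide as a fixed block SERCA2 passed (adjusted p = 0.0434 in limma) and the other 3 probes named here did not. In that fit 891 probes passed, with 3 contractile probes among them, so SERCA2 was not the only contractile probe to pass.

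X22 and X35 differed in tropomyosin alpha-3, myosin-Ic C196R093 and myosin light chain 4-like. Tropomyosin alpha-3 had ratios in X35 of 0.10, 0.32, -2.48, -0.95 and -2.80 in enriched and of 0.96, 0.56, -4.12, -4.18 and -3.77 in unenriched juveniles. Replicates 3, 4 and 5 were low in both X35 groups, whereas replicates 1 and 2 lay within the X22 range of -0.22 to 1.06. In the paper's principal components analysis of all retained probes, 3 enriched and 3 unenriched X35 juveniles formed a cluster of their own. Whether those were the same juveniles was not tested. The family mean of tropomyosin alpha-3 was -1.64 in X35 and 0.34 in X22, a difference of 1.98 (SE 0.61, adjusted p = 0.0415 in limma). In each X35 group 3 arrays were under the detection limit, and 1 enriched X35 value was imputed. The difference no longer passed in 14 of the 20 fits that left out 1 juvenile (adjusted p up to 0.0804 in limma), with passing values kept only without replicates 1 and 2 of either X35 group or replicates 4 and 5 of the enriched X22 group.

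Myosin-Ic C196R093 was higher in X35, with a family mean of 0.75 against -0.12 in X22 (difference -0.87, SE 0.16, adjusted p = 0.00245 in limma) and -0.01 in X11. It was under the detection limit on 3 of the 10 X35 arrays, 5 of the 10 X22 arrays and 9 of the 10 X11 arrays, so the X22 and X11 means rest in part on values below the limit. Myosin light chain 4-like (C178R075), an essential light chain, was higher in X35 at 0.71 against 0.13 in X22 (difference -0.58, SE 0.16, adjusted p = 0.0239). None of these 3 differences passed with slide as a fixed block, where 63 probes of the table passed.

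**Figure D3:**
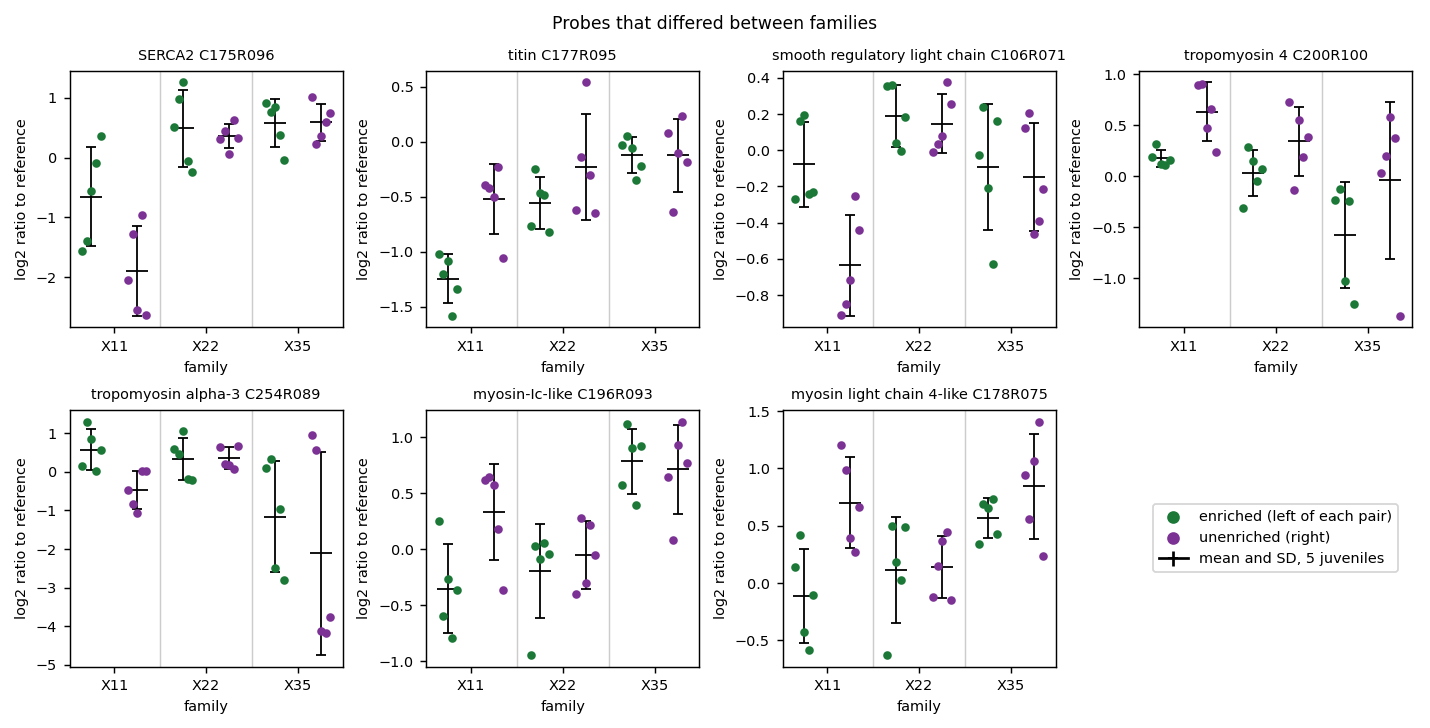
Log2 ratio to the pooled reference of the 7 probes that passed the test between families, by family (x axis) and environment (left of each pair enriched, right unenriched), with the mean and SD of 5 juveniles. SERCA2 is lowest in X11, and tropomyosin alpha-3 splits the X35 juveniles of both environments.

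Between juveniles of a group, the striated probes varied together. Over the 276 pairs of striated probes, the Pearson correlation of deviations from the group means over 30 juveniles had a median of 0.25 and ranged from -0.40 to 0.79, with 80.8% of pairs above 0. Pairs of a striated and a smooth or non-muscle probe had a median of -0.02, and pairs of a striated probe with any other probe of the table -0.01. With the other muscle lists described below, striated probes had medians of 0.35 (heart muscle), 0.31 (other muscle structure), 0.24 (myogenic regulators) and 0.12 (muscle energy). The covariation was thus not particular to the striated probes chosen here. All points share arrays, the reference and the normalization, and probes of a gene can share transcripts. Within group and slide, over 24 juveniles, the median of striated pairs was 0.29.

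Nebulin C114R022 and alpha-actinin-2 C114R088, both of the Z-disc region, varied most alike (r = 0.79). The 2 alpha-actinin-2 probes had r = 0.70, the 2 titin probes 0.60, the 2 smooth regulatory light chains 0.52, the 2 nebulin probes 0.46 and the 2 alpha-actinin-3 probes 0.39. The 2 myosin-Ic probes had r = -0.38. Titin C177R095 had the highest median correlation with the other striated probes (0.50), and creatine kinase (0.03) and the saturated pump C228R110 (-0.14) the lowest.

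A second cluster lay among the smooth and non-muscle probes. Tropomyosin alpha-3 varied with myosin-Ic C174R012 (r = 0.78) and with tropomyosin alpha-4 (r = 0.76). Of the X35 juveniles that were low for tropomyosin alpha-3, unenriched juveniles 3, 4 and 5 had -1.87, -1.90 and -2.31 for myosin-Ic C174R012 and -0.32, -1.57 and -1.80 for tropomyosin alpha-4. Enriched juveniles 3, 4 and 5 had -0.18, 0.21 and -2.10 for myosin-Ic and -0.47, 0.06 and -0.41 for tropomyosin alpha-4, so that enriched juvenile 4 was not low for either. Both probes were under the detection limit on all 5 unenriched X35 arrays.

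**Figure D4:**
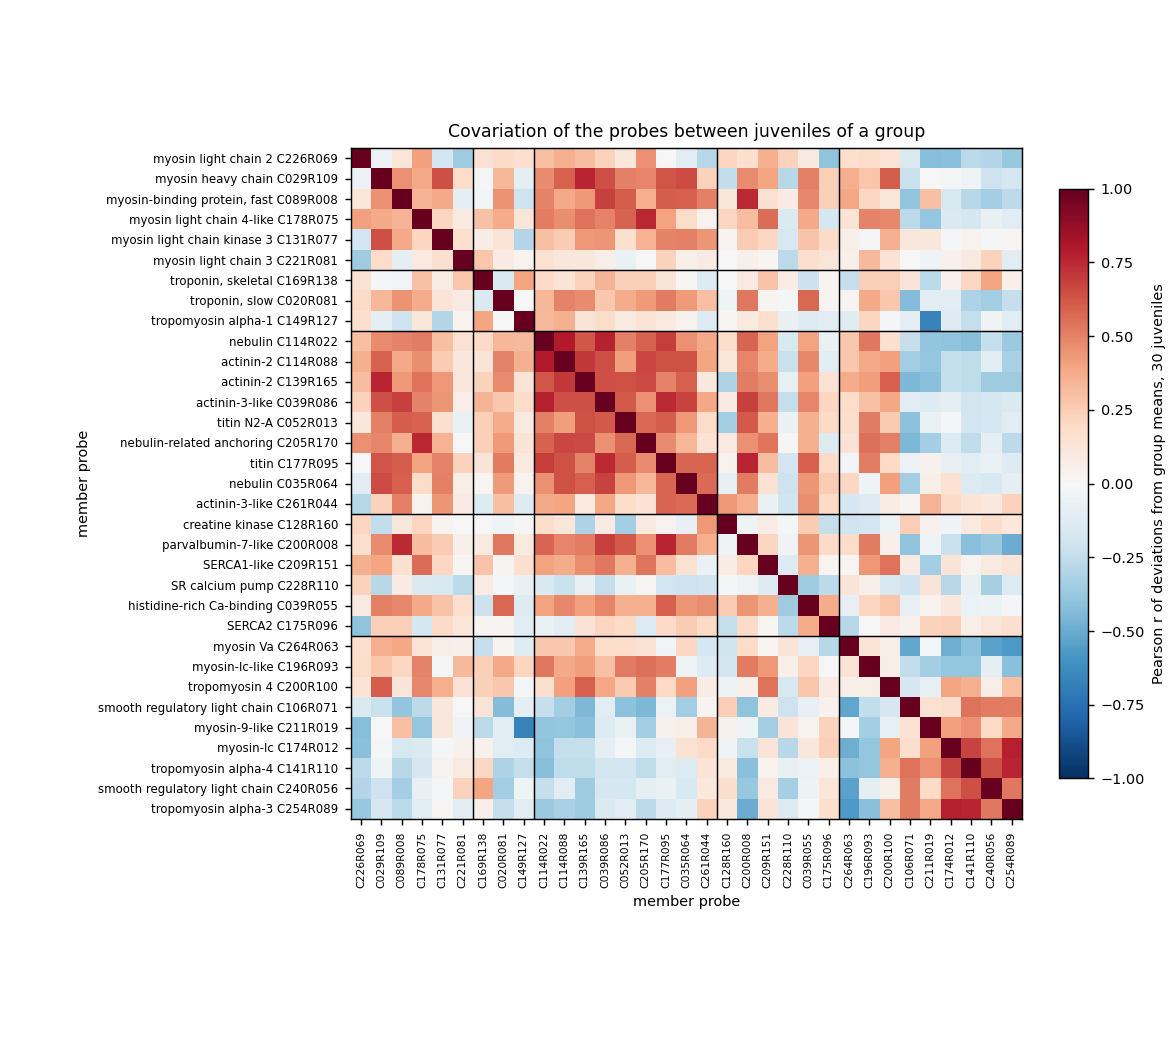
Pearson correlation (colour, from -1 to 1) of the deviations from the 6 group means over 30 juveniles for each pair of the 33 probes, in class order on both axes. The Z-disc block is mostly positive, and the smooth and non-muscle block holds a small separate positive cluster.

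Probes named for heart muscle were compared as markers of another muscle in the head. Of these, C056R089, C074R053 and C252R157 are named as troponin of slow skeletal and cardiac muscles, so the list is not of heart muscle alone. The 12 of this list all came from the study's all-family table, so they were chosen for differing between environments over the same juveniles, and their direction is no independent evidence. All 12 were lower in enriched juveniles of X11 (median -0.89), X22 (-0.40) and X35 (-0.54). Because the X22 and X35 juveniles helped to choose the 12, no test is given for them there. Between juveniles of a group, striated and heart probes correlated at a median of 0.35 over 288 pairs. The median of the heart probes ranged from -0.77 to -0.35 in enriched and from -0.12 to 0.81 in unenriched X11 juveniles, from -0.96 to -0.50 and from -0.65 to 0.84 in X22, and from -0.70 to -0.10 and from -0.19 to 0.79 in X35.

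The atrial myosin light chain probe C086R103, which the rule left out, took either high or low values. It lay between 0.05 and 0.99 in 8 unenriched juveniles (replicates 1 to 4 of X11, 1 and 3 of X22, 3 and 4 of X35) and between -5.34 and -2.73 in the other 22, all 15 enriched juveniles among them. The median over the 24 striated probes was 0.56, 0.48, 0.42, 0.49 and 0.07 in unenriched X11 juveniles 1 to 5, of which juvenile 5 had an atrial value of -4.27. In the enriched X11 juveniles it was -0.19, -0.46, -0.42, -0.63 and -0.32, all below unenriched juvenile 5. The choice of probes on X11 favours this order, and nothing is read from it. The part of heart tissue in the striated differences was not tested.

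In X22 the striated median was -0.24, -0.03, 0.44, -0.03 and -0.15 in unenriched juveniles, highest in juvenile 3, and between -0.55 and -0.01 in the enriched ones. In X35 it was 0.21, -0.07, 0.36, 0.66 and -0.10 in unenriched juveniles, highest in juveniles 3 and 4, and between -0.07 and 0.19 in the enriched ones. Enriched and unenriched juveniles overlapped in both families.

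**Figure D5:**
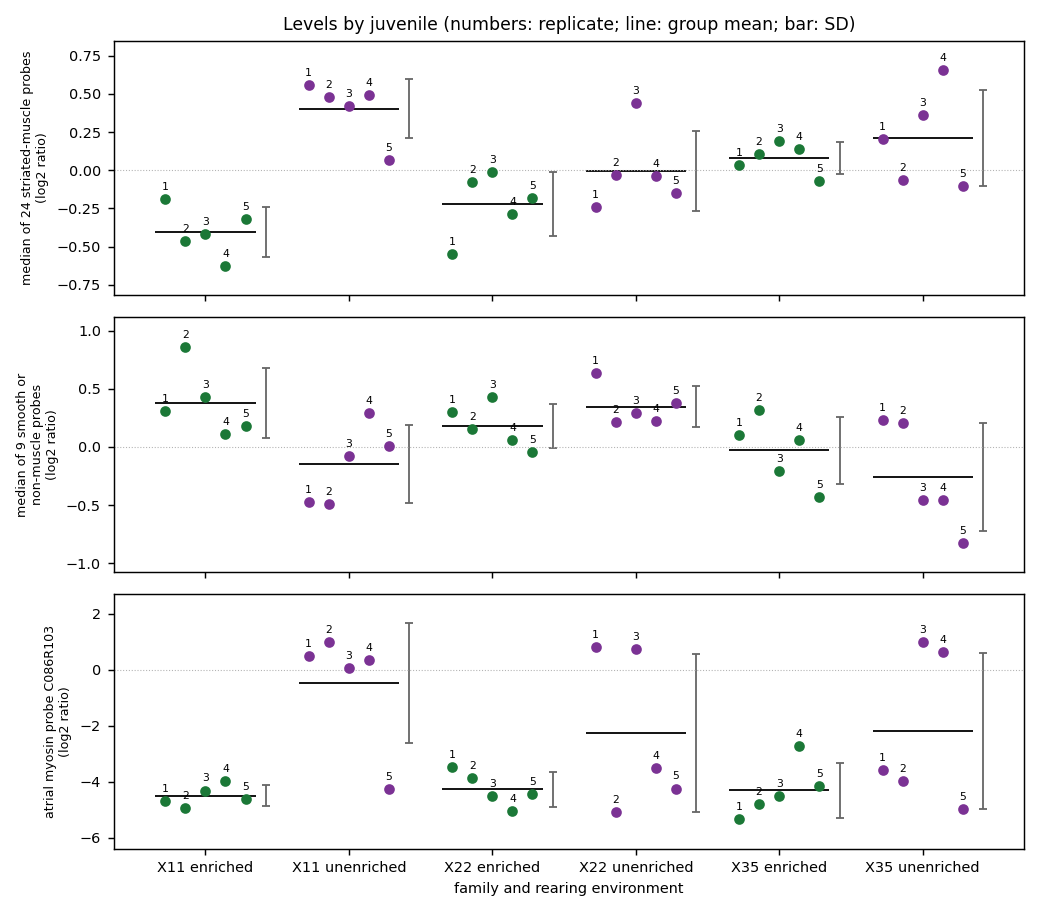
Median log2 ratio of the 24 striated probes (top) and of the 9 smooth or non-muscle probes (middle), and the ratio of the atrial myosin probe (bottom), for each juvenile (numbers are replicates, green enriched, purple unenriched), with the mean and SD of each group. Striated medians of the X11 groups do not overlap (highest enriched -0.19, lowest unenriched 0.07), and those of X22 and X35 do.

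Other muscle lists, taken from the same selected tables and so no independent evidence, gave these counts. Of 16 other muscle structure probes, 16 were lower in enriched X11, 14 in X22 and 15 in X35 juveniles. Of 7 myogenic regulators, 7, 6 and 5 were lower. Of 7 energy probes, 5, 2 and 0 were lower. This list is not of muscle alone, since C085R160 is named as a testis and liver isoform. Of all probes 51.4% were lower in X11, 50% in X22 and 49.3% in X35. In X22 and X35 together 15 of 16 structure, 7 of 7 regulator and 1 of 7 energy probes were lower, against 50.1% of all probes. No test is given there, because those juveniles helped to choose 11, 4 and 2 of these probes. Short lists for other tissues of the head, also from these tables, differed in X11 too. All 3 skin probes were higher in enriched X11 juveniles (median 1.00, from 0.70 to 2.38), 3 of 4 lens probes were lower (median -0.61, lowest -1.86), and 2 of 3 blood probes were lower (median -0.54). Over X22 and X35 together 1 of 3 skin, 1 of 4 lens and 1 of 3 blood probes were lower, again with no test given. The part of these tissues in the X11 differences was not tested.

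Arrays lay on 8 slides, and slide and group overlapped only in part. In X11 only 1 slide held both environments, so environment and slide can hardly be told apart in that family. On that slide (1 enriched and 3 unenriched X11 juveniles), 23 of 24 striated probes were lower, with a median of -0.46, against -0.87 over all X11 juveniles. Of all probes 51.9% were lower there. Nothing is read from this count, because the X11 contrast chose most of the probes. On the 2 X22 slides with both environments, 9 (median -0.03) and 13 (median -0.31) of the 16 listed for X11 alone were lower. Of all probes 49.4% and 49.9% were lower on these slides. On the X35 slide with 3 enriched juveniles and 1 unenriched juvenile, 1 of the 16 was lower, with a median of 0.22, against 53.3% of all probes lower. The part of the slide in the environment difference was not tested further.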

How the data were processed

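Agilent 4×44K salmonid arrays of 30 juveniles were scanned and quantified by the authors with Imagene 9.0 as spot intensity in Cy5 and Cy3. The deposited value table holds log2 ratios of Cy5 over Cy3 that the authors loess-normalized per array. They removed flagged spots and spots whose Cy3 (reference) signal was under the mean background plus 2 SD, applied no such limit to Cy5, left out probes undetected on more than 8 arrays and imputed missing values (1.06% of values by recomputation). Each column matched its own array's scanner values (lowest r = 0.997). Differences were fitted on the log2 ratios with limma 3.58.1 in R 4.3.3 (two-sided, Benjamini-Hochberg over 21117 probes), in place of the SAM test of the methods, and the fits were tested on simulated data. The members, gene lists and tests were chosen with earlier results of these data known. Every member is accounted for. Members passing an adjusted p of 0.05, and otherwise the 2 with the largest difference over X22 and X35 in each class, are given in full, and probes singled out beyond these were chosen after their values were seen. The number of arrays limits the precision. Alternatives were recomputation from the intensities without imputation, normexp background correction with an offset of 50, scaling between arrays, filters on imputed or dim probes, array weights, slide and replicate blocks, no family term, means of the 4 containers of X22 and X35, and leaving out each juvenile. Probe sequences and positions were not used here.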

Additional observations from a re-analysis of the deposited data

Results flagged for a closer look

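Of 210 sets of 5 juveniles examined, 16 held 1 juvenile whose gap to the nearest other exceeded the Dixon limit of 0.71 of the whole range, and chance flags about 1 in 20 sets. Among the 198 sets of single probes there were 15 (7.58%). Replicate 3 of the unenriched X22 group was the highest of its group in 5 of them, at 1.11 for nebulin C035R064, 1.06 for myosin-binding protein fast-type-like C089R008, 1.31 for nebulin C114R022, 0.75 for alpha-actinin-2 C114R088 and 1.11 for alpha-actinin-3-like C261R044 (log2 ratio to the reference). This juvenile also had a high heart muscle median (0.84), and the part of heart tissue was not tested.

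Replicate 5 of the unenriched X11 group was the lowest of its group for nebulin C114R022 (0.43), for parvalbumin-7-like C200R008 (-0.70) and for the median of the 24 striated probes (0.069). Replicate 5 of the unenriched X35 group was lowest for skeletal troponin C169R138 (-0.97) and tropomyosin 4 C200R100 (-1.37). Alpha-actinin-3-like C261R044 was highest in replicate 4 of the unenriched X11 group (0.78) and in replicate 1 of the unenriched X35 group (0.80). Titin C052R013 was highest in replicate 4 of the unenriched X35 group (0.36). Myosin heavy chain C029R109 was lowest in replicate 5 of the enriched X22 group (-1.65) and highest in replicate 2 of the enriched X35 group (0.55). Myosin-Ic C196R093 was lowest in replicate 1 of the enriched X22 group (-0.94).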

How the results depend on the processing

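No alternative brought any of the 25 probes listed for X11 alone past the threshold in X22, in X35, in both together or in their interaction. With slide as a fixed block, the probes called over both families fell from 4 to 2, the median of the 25 was 0.056 in place of -0.15, and creatine kinase (0.27) and skeletal troponin (0.34) reversed. The same block gave a median of 0.25 in X35 and -0.41 in the interaction. Slow troponin reversed with array weights (0.044). The interaction median was -0.025 with array weights and 0.0019 among probes above the detection limit on at least 15 arrays, against -0.19. Probes called in X22 were 2 after scaling between arrays and 2 with array weights, against 1, and in X35 1 with the detection filter and 2 with array weights, against 0. Between X22 and X35, array weights called 5510 probes and 11 members, and slide as a fixed block 63 and 0. Between X11 and the others, array weights called 4584 probes and 5 members, slide as a fixed block 891 and 3, and slide as a random block 1924 and 2. The causes were not tested.

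Leaving out 1 juvenile gave 0 to 4 probes called in X22 and 0 to 1 in X35, and between X22 and X35 1487 to 3546 probes and 2 to 7 members (7, of 2626 probes, without replicate 3 of the unenriched X22 group). Tropomyosin alpha-3 did not pass between X22 and X35 after recomputation, normexp or with slide as a random block.

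Replicate numbers were not taken as pairs. Same-numbered juveniles correlated at -0.12 to 0.02 in X11 and -0.09 to 0.11 in X22, but at 0.05 to 0.58 in X35, over 0.1 for 4 of 5 numbers. With the replicate block, 3168 probes and 5 members were called between X22 and X35, against 2489 and 3. Chosen after seeing the data, recomputed, normexp and scaled values gave 23 of 24 striated probes lower in X11 each time. The X11 contrast chose most of these probes, so that count is a description only. Of the 16 listed for X11 alone, 9 to 12 were lower in X22 and 7 or 8 in X35.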
